A study of Homo sapiens with 43 samples.

Results

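The genes described here are 10 regulators of the G1 phase of the cell cycle: the D-type cyclins CCND1, CCND2 and CCND3, the E-type cyclins CCNE1 and CCNE2, the cyclin-dependent kinases CDK2, CDK4 and CDK6, and the kinase inhibitors CDKN1B (p27) and CDKN2C (p18). They were taken by name from the 58347 gene entries of the RNA count table, with earlier results of these data known. All 10 passed the filter on low counts that left 21300 entries. HEL cells, which come from a human erythroleukemia, carried stably transduced U2AF1 in its wild-type form (WT) or in the cancer-associated forms S34F or Q157R, switched on by 48 h of doxycycline (1 µg/ml). U2AF1 is the small subunit of the factor that marks the 3' splice site in pre-mRNA. For RNA-seq, each line gave 2 induced libraries, beside which stood 2 uninduced libraries of WT, 1 of S34F and 1 of Q157R, all of cells that the labels do not describe as altered at their own U2AF1 gene. The labels call the replicates biological without saying that they were separate cultures, so p-values measure only the spread between these samples, which may be technical. Nor do they say whether a line was a clone or a pool.

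A D-type cyclin binds CDK4 or CDK6 and starts the phosphorylation of the retinoblastoma protein, which releases E2F transcription factors. E2F then drives CCNE1, CCNE2 and the genes of DNA replication, and an E-type cyclin with CDK2 completes the step into S phase. CDKN2C blocks CDK4 and CDK6 directly, and CDKN1B restrains cyclin E with CDK2 while it also sits on cyclin D complexes. In blood progenitors CCND2, CCND3 and CDK6 are known as the main forms.

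The gene counts per RNA library ran from 22392303 to 40370092. Reads outside annotated features made up 33.6 ± 0.141% of the induced S34F libraries (SD, n = 2), against a mean of 22.7% in induced WT (22.7% in each library), 25.1 ± 2.69% in induced Q157R (n = 2) and 19% to 20.6% in the uninduced libraries. That share moved with every difference of induced S34F cells given here, and its part in them was not tested. U2AF1 itself read 18 and 19.4 CPM in induced S34F, 19.1 and 11 CPM in induced WT and 21.2 CPM in uninduced S34F, where CPM is counts per 1000000 after scaling for library composition. U2AF1 shares its sequence with a near-identical copy in this genome build, so its count does not check the labels. U2AF2, its partner, stood at 218 and 161 CPM in induced S34F and at 378 and 278 CPM in induced WT. Of the erythroid markers 11 of 12 averaged at least 1 CPM, with sums of 1458 to 2730 CPM over the libraries (1474 and 1827 CPM in induced S34F, 1687 and 2194 CPM in induced WT). Single erythroid markers moved in both directions. GATA1 read 146 and 154 CPM in induced S34F, below 213 and 224 CPM in induced WT. EPOR read 46 and 40.0 CPM, above 21.3 and 22.2 CPM, and ALAS2 20.7 and 14.2 CPM, above 9.02 and 7.58 CPM. Of the 6 lymphoid markers 1 averaged at least 1 CPM, with sums of 1.31 to 4.49 CPM, and MS4A1 was at 0 counts throughout. The 6 megakaryocyte markers, 5 of them averaging at least 1 CPM, summed to 941 and 1366 CPM in induced S34F, below 1600 and 2498 CPM in induced WT, and to 1175 to 1774 CPM elsewhere. Among them ITGB3 read 127 and 131 CPM in induced S34F, 253 and 245 CPM in induced WT and 127 CPM in uninduced Q157R. The 7 monocyte and granulocyte markers, 2 of them averaging at least 1 CPM, summed to 51.5 and 54 CPM in induced S34F, above 36.6 and 46.9 CPM in induced WT and 23.1 to 49.5 CPM elsewhere. That rise was of LYZ alone, at 50.1 and 51 CPM in induced S34F and 33.8 and 38.6 CPM in induced WT. CSF1R, the other of the 2, read 0.907 and 2.6 CPM in induced S34F and 2.17 and 7.95 CPM in induced WT. The 7 stromal and epithelial markers summed to 506 and 617 CPM in induced S34F and 481 and 513 CPM in induced WT, ranges that overlap. The megakaryocyte and the monocyte and granulocyte sums, and GATA1, EPOR and ALAS2, thus moved with the differences of induced S34F from WT given here. Their part in those differences was not tested.

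The promoter windows of RefSeq (GRCh38.p14) held 6 of the 10 genes, in 11 windows. CCND1, CCND2, CCNE2 and CDK2 had no entry. The 250 bases before the start are shown for CCND3 and CDK4, which were lower in induced S34F cells than in induced WT cells, and for CDK6, the other kinase of D-type cyclins, which did not pass that test. Capitals mark GGGCGG (GC box) and CACGTG (E box) on either strand, each sequence runs 5' to 3' on the gene's strand, and of the windows of CCND3 and CDK6 the one with the most matches is shown.
CCND3 (chr6:42048689-42048938, minus strand): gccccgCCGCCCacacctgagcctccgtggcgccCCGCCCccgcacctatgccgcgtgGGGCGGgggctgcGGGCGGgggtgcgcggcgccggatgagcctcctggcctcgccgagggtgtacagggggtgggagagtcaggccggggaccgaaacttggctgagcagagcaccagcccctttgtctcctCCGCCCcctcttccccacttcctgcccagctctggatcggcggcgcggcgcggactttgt
CDK4 (chr12:57752311-57752560, minus strand): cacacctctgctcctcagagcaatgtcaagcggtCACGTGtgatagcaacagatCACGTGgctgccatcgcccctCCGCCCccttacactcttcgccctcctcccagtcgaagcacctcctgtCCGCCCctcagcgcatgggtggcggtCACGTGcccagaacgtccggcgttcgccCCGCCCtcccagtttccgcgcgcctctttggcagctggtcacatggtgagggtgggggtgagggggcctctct
CDK6 (chr7:92836574-92836823, minus strand): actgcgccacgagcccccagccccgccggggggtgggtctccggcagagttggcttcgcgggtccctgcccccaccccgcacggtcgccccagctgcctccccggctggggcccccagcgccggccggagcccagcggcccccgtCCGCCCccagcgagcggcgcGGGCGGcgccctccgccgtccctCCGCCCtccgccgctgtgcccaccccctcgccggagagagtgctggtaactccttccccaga
The CDK4 window held 3 E boxes and 3 GC boxes, the CCND3 window 5 GC boxes and no E box, and the CDK6 window 3 GC boxes and no E box. E boxes stood in 3 of the 11 windows, 1 of CDK4 and 2 of CDKN2C, and in 6.34% of the 35116 windows of all genes. GC boxes stood in 8 of the 11 windows and in 42.6% of all windows. The E2F motifs TTTCCCGC, TTTCGCGC, TTTGCCGC and TTTGGCGC, searched on both strands, were in 0 of the 11 windows and in 2.79% of all windows, and on the reverse strand they can overlap a GC box.

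CCND2 was the most abundant of the 10 per kb of exon in every group, and CCND1 and CCNE1 were the least abundant. In induced WT cells CCND2 stood at 116 ± 29.4 CPM per kb, CDK4 at 67.3 ± 5.55, CCND3 at 52.5 ± 3.95, CDKN2C at 40.7 ± 9.74, CDK6 at 37.9 ± 5.1, CDK2 at 20.5 ± 2.89, CDKN1B at 18.2 ± 3.74, CCNE2 at 6.26 ± 4.99, CCND1 at 3.24 ± 0.645 and CCNE1 at 2.5 ± 1.49 CPM per kb (SD, n = 2 each). The neighbours CDKN2C and CDK6, CDK2 and CDKN1B, CCNE2 and CCND1, and CCND1 and CCNE1 had overlapping library values in that order, and CCND3 and CDKN2C did not but lay within the sum of their SDs. In induced S34F cells CCND2 was at 51.7 ± 18.4, CDKN2C at 32.3 ± 4.58, CDK6 at 31.8 ± 0.834, CDK4 at 26.1 ± 2.65, CDKN1B at 21.9 ± 0.0946, CCND3 at 20.8 ± 4.57, CDK2 at 10.5 ± 2.11, CCNE2 at 2.85 ± 0.129, CCND1 at 0.809 ± 0.279 and CCNE1 at 0.73 ± 0.115 CPM per kb. CDK4 thus moved from the second place to the fourth and CCND3 from the third to the sixth, while CDKN1B moved from the seventh to the fifth. There the library values of the neighbours CDKN2C and CDK6, CDKN1B and CCND3, and CCND1 and CCNE1 overlapped, and CCND2 and CDKN2C lay within the sum of their SDs.

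**Figure D1:**
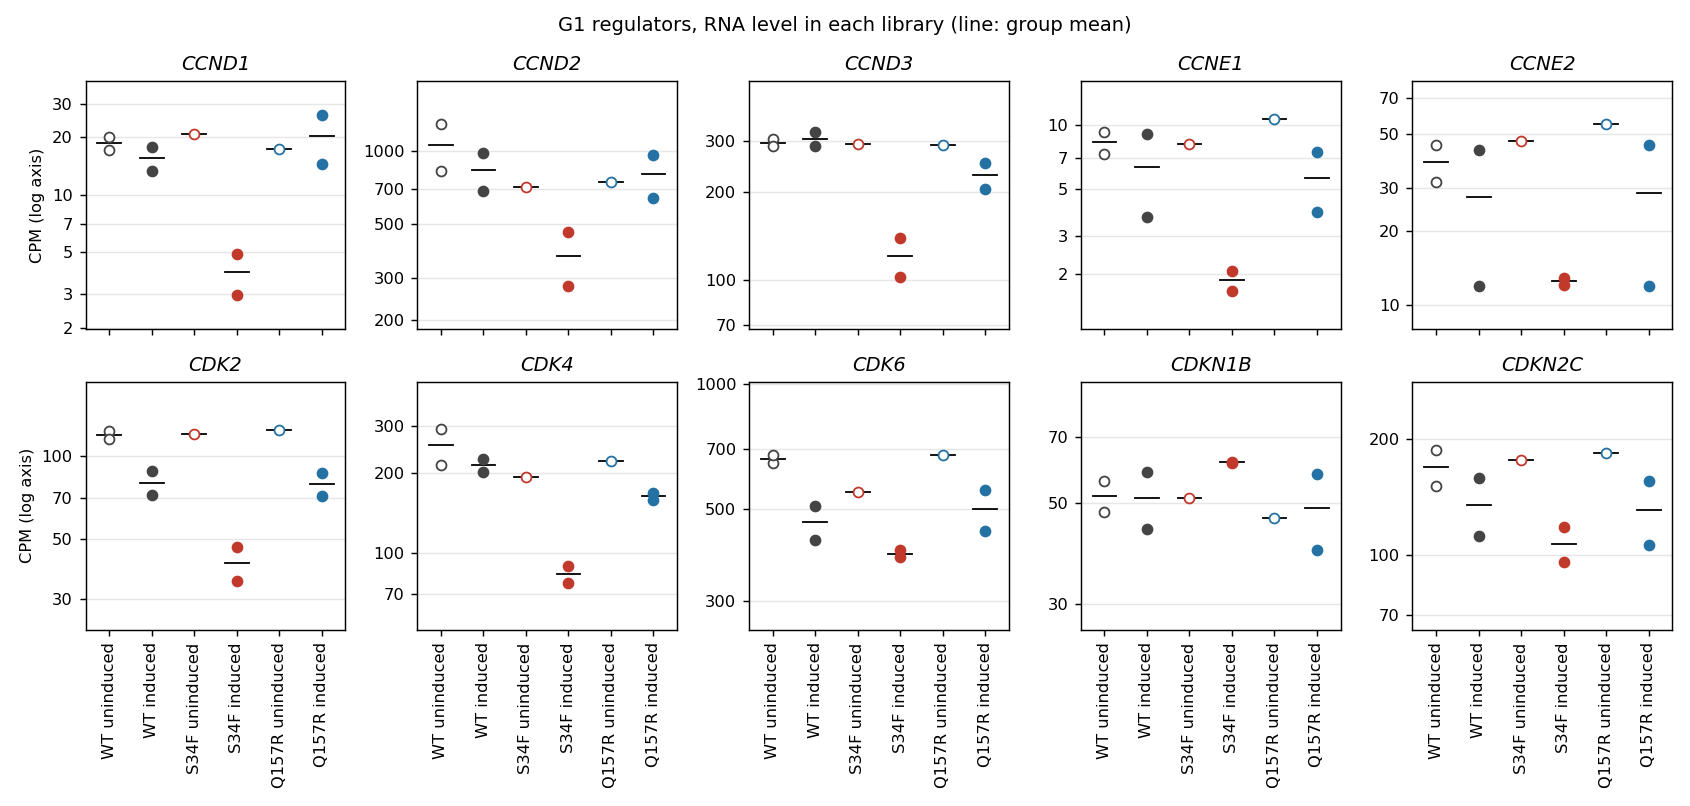
RNA level of each gene in each of the 10 libraries, in CPM on a log axis, by line and induction. Points are libraries (open: uninduced, filled: induced) and lines are group means; both induced S34F points lie below all other points for CCND1, CCND2, CCND3, CCNE1, CDK2, CDK4 and CDK6.

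In induced cells, 3 of the 10 genes were lower in S34F than in WT and none was higher: the cyclins CCND1 and CCND3 and the kinase CDK4. In the fit over all 10 libraries, 356 of 21300 genes (1.67%) passed an adjusted p of 0.05, 211 of them lower. The 10 genes had a median log2 difference of -1.15, against 0.00 over all genes tested, and 9 of the 10 differences were below 0, against 50% of all genes. As the 10 genes were chosen with earlier results of these data known, their direction is not independent evidence. The replicate numbers were taken to pair the libraries, and with the number as a block in the fit 6 of the 10 were lower, with CCND2, CCNE1 and CDK2 added, where 22.4% of all genes passed. DESeq2 also called 6 of the 10, and 9.39% of all genes.

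CCND1 (chr11:69641087-69654474, plus strand) encodes cyclin D1, the D-type cyclin best known as a target of mitogen signals. It read 2.96 and 4.86 CPM in induced S34F, 17.8 and 13.4 in induced WT, 26.4 and 14.5 in induced Q157R, 20.1 and 17.1 in uninduced WT, 20.9 in uninduced S34F and 17.5 CPM in uninduced Q157R. Both induced S34F libraries lay below the other 8, and no other group stood apart. These levels rested on 75 and 148 counts in induced S34F and on 365 to 729 counts elsewhere. The log2 difference of S34F from WT was -2.00 ± 0.36 (SE; edgeR adjusted p = 0.0451), and with the replicate block -1.95 ± 0.31 (adjusted p = 0.00336). LTO1, a gene on the opposite strand, covers 10.3% of the exon bases of CCND1, and whether the counting used strand is not stated. LTO1 read 21.7 and 15.6 CPM in induced S34F and 16.4 and 11.2 CPM in induced WT, ranges that overlap.

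CCND3 (chr6:41934933-42050357, minus strand) encodes cyclin D3, a D-type cyclin that erythroid cells use. It read 102 and 139 CPM in induced S34F, 321 and 288 in induced WT, 252 and 206 in induced Q157R, 304 and 288 in uninduced WT, 292 in uninduced S34F and 291 CPM in uninduced Q157R. Induced S34F was lowest without overlap, and induced Q157R lay between it and the rest. S34F differed from WT by a log2 value of -1.34 ± 0.20 (edgeR adjusted p = 0.0443).

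CCND2 (chr12:4273772-4305350, plus strand) encodes cyclin D2. It read 277 and 463 CPM in induced S34F, 684 and 981 in induced WT, 642 and 964 in induced Q157R, 827 and 1298 in uninduced WT, 712 in uninduced S34F and 743 CPM in uninduced Q157R. Replicate 2 was above replicate 1 in all 4 groups with both. The log2 difference of S34F from WT was -1.17 ± 0.35 without the block (edgeR adjusted p = 0.106) and -1.19 ± 0.13 with it (adjusted p = 0.000437). DESeq2, without the block, called it lower as well (-1.16, adjusted p = 0.0198).

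CDK4 (chr12:57747727-57756013, minus strand) is a kinase partner of the D-type cyclins. It read 76.9 and 88.8 CPM in induced S34F, 201 and 226 in induced WT, 168 and 158 in induced Q157R, 214 and 293 in uninduced WT, 193 in uninduced S34F and 222 CPM in uninduced Q157R. S34F differed from WT by a log2 value of -1.36 ± 0.19 (edgeR adjusted p = 0.0432), and no library of another group reached down to induced S34F. TSPAN31 on the opposite strand covers 43.2% of the exon bases of CDK4. TSPAN31 read 25.2 and 23.2 CPM in induced S34F and 21.8 and 29.9 CPM in induced WT, and its log2 difference was -0.09 ± 0.22.

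CDK6 (chr7:92604921-92836594, minus strand), the other partner of the D-type cyclins, read 383 and 397 CPM in induced S34F, 509 and 420.1 in induced WT, 557 and 443 in induced Q157R, 647 and 676 in uninduced WT, 551 in uninduced S34F and 676 CPM in uninduced Q157R. The log2 difference of S34F from WT was -0.25 ± 0.18, with a 95% interval from -0.66 to 0.16 (edgeR adjusted p = 0.42). That interval lay above the whole interval of CDK4, from -1.81 to -0.92. Within a library, a ratio of genes does not depend on how libraries are scaled. The ratio of CDK6 to CDK4 counts per kb was 1.29 and 1.16 in induced S34F and 0.481 to 0.856 in the other 8 libraries, without overlap.

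CDK2 (chr12:55966769-55972784, plus strand), the kinase of the E-type cyclins, read 34.9 and 46.6 CPM in induced S34F, 87.9 and 72.1 in induced WT, 86.5 and 71.2 in induced Q157R, 123 and 115 in uninduced WT, 120.4 in uninduced S34F and 124 CPM in uninduced Q157R. The 10 libraries fell into 3 levels, with the uninduced highest, induced WT and Q157R between, and induced S34F lowest. S34F differed from WT by a log2 value of -0.97 ± 0.21 (edgeR adjusted p = 0.0573), and it passed with the block (adjusted p = 0.00386).

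CCNE1 (chr19:29811898-29824308, plus strand) encodes cyclin E1. It read 1.66 and 2.07 CPM in induced S34F, 9.05 and 3.68 in induced WT, 7.44 and 3.89 in induced Q157R, 9.26 and 7.28 in uninduced WT, 8.16 in uninduced S34F and 10.7 CPM in uninduced Q157R. The values in induced S34F rested on 42 and 63 counts. Its log2 difference was -1.77 ± 0.49 (edgeR adjusted p = 0.0908), and -1.64 ± 0.35 with the block (adjusted p = 0.00804).

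CCNE2 (chr8:94879770-94896678, minus strand) encodes cyclin E2, and its libraries followed the replicate number as much as the line. It read 12.9 and 12.1 CPM in induced S34F, 43.1 and 12 in induced WT and 45.1 and 12 CPM in induced Q157R, so replicate 2 of every induced line lay at the level of S34F. Without induction the values were 45.1 and 31.8 CPM for WT, 46.5 for S34F and 54.7 for Q157R. The log2 difference of S34F from WT was -1.14 ± 0.68 (edgeR adjusted p = 0.344), and it ranged from -1.80 to 0.06 when 1 of the 4 libraries was left out. CCNE2 passed without a filter on low counts (edgeR adjusted p = 0.000849), but not with the block or in DESeq2. INTS8 on the opposite strand shares 37% of the exon bases of CCNE2.

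CDKN1B (chr12:12715058-12722371, plus strand), the inhibitor p27, was the only one of the 10 with a positive difference of S34F from WT. It read 61.7 and 61.3 CPM in induced S34F, 43.9 and 58.7 in induced WT, 39.4 and 58.1 in induced Q157R, 47.9 and 55.8 in uninduced WT, 51.4 in uninduced S34F and 46.4 CPM in uninduced Q157R. The log2 difference was 0.26 ± 0.23, with a 95% interval from -0.28 to 0.80 (edgeR adjusted p = 0.525). Set against the summed D-type cyclins of the same library, per kb, CDKN1B was 38.6% and 24.3% in induced S34F and 8.46% to 11.9% in the other 8 libraries. These ratios were chosen after the values were seen, and an exact two-sided permutation test of 2 against 2 libraries cannot give less than p = 0.333.

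CDKN2C (chr1:50960745-50974633, plus strand), the inhibitor p18, read 118 and 96.3 CPM in induced S34F, 158 and 112 in induced WT, 156 and 106 in induced Q157R, 187 and 151 in uninduced WT, 176 in uninduced S34F and 184 CPM in uninduced Q157R. The induced groups overlapped. The log2 difference of S34F from WT was -0.33 ± 0.25, with a 95% interval from -0.92 to 0.25 (edgeR adjusted p = 0.454).

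**Figure D2:**
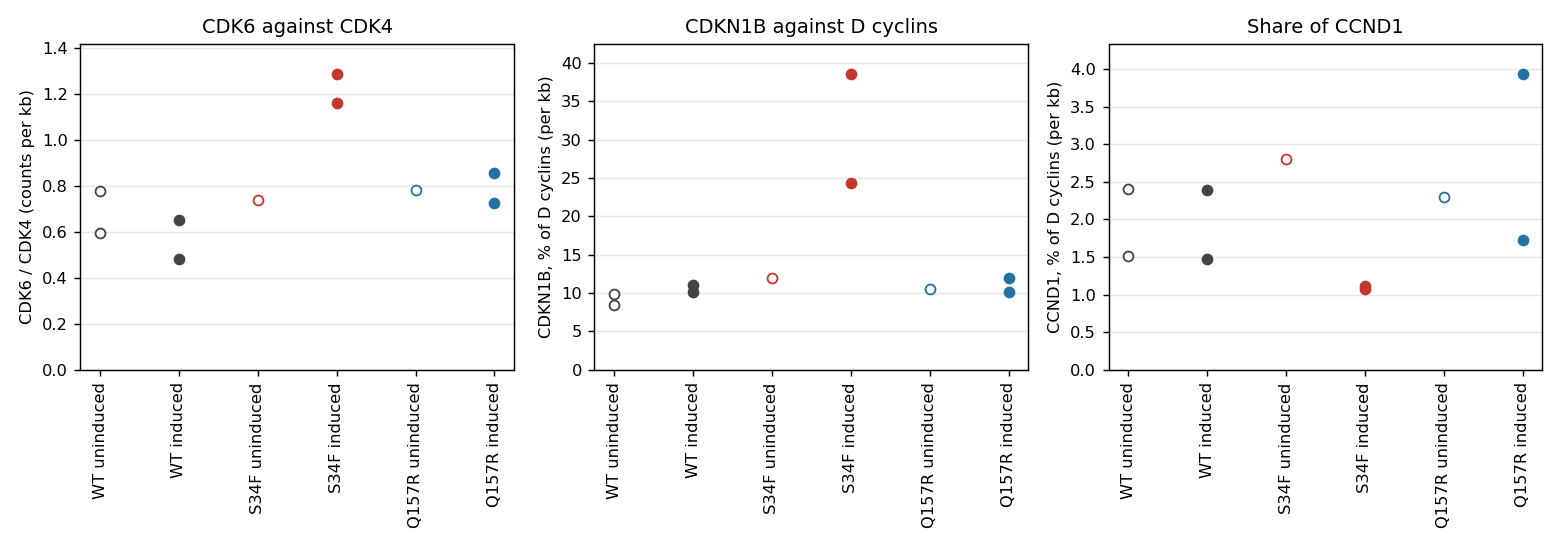
Ratios of G1 regulators within each of the 10 libraries, from counts per kb of exon, by line and induction (open: uninduced, filled: induced). The CDK6 to CDK4 ratio is 1.29 and 1.16 and CDKN1B is 38.6% and 24.3% of the D-type cyclins in induced S34F, above the other libraries, and the share of CCND1 among the D-type cyclins is 1.08% and 1.12%, below them.

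Among the D-type cyclins of a library, CCND1 made up 1.08% and 1.12% per kb in induced S34F and 1.47% to 3.94% in the other 8 libraries. CCND2 made up 61.8% to 77.8% and CCND3 20.5% to 35.8% over all 10 libraries, and for both of these cyclins induced S34F (68.1% and 72.1%, 30.8% and 26.7%) lay within the range of the other lines. The call for the 3 genes was lost when any 1 of the 4 induced WT and S34F libraries was left out, as no gene at all then passed in edgeR. The log2 differences in those fits were -2.40 to -1.68 for CCND1, -1.58 to -1.12 for CCND3 and -1.47 to -1.26 for CDK4, with adjusted p from 0.12 to 0.359, and 5 to 7 of the 10 genes had an unadjusted p under 0.05, against 11.7% to 18.3% of all genes.

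**Figure D3:**
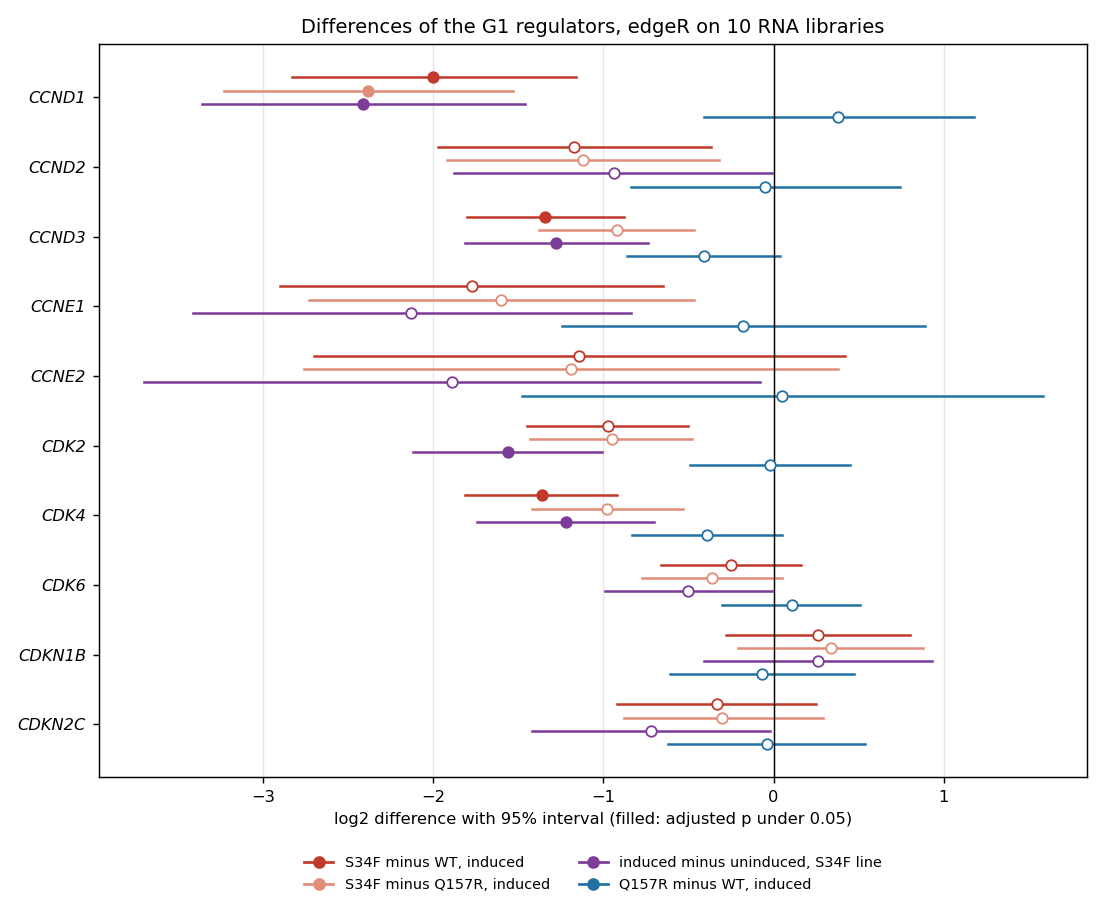
Log2 differences of the 10 genes in 4 comparisons of the RNA libraries, with 95% intervals, from edgeR on all 10 libraries without the replicate block. Filled points passed an adjusted p of 0.05; all 8 filled points lie below 0, and the intervals of Q157R minus WT include 0 for each gene.

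Against Q157R, the other mutant, induced S34F cells had lower CCND1, and the other 9 genes did not pass. The comparison shares its S34F libraries with the one against WT. Here 119 of 21300 genes (0.559%) passed, 1 of the 10 among them, and the 10 genes had a median log2 difference of -0.96 against -0.00 over all genes. CCND1 differed by -2.38 ± 0.37 (edgeR adjusted p = 0.0495), CDK4 by -0.98 ± 0.19 (adjusted p = 0.0593), CCND3 by -0.92 ± 0.20 (adjusted p = 0.0667) and CDK2 by -0.95 ± 0.21 (adjusted p = 0.0675). With the replicate block 6 of the 10 passed, namely CCND1, CCND2, CCND3, CCNE1, CDK2 and CDK4, where 20% of all genes did, and DESeq2 called 6 as well, with 8.42% of all genes. Without 1 of the 4 induced libraries edgeR called no gene at all, the difference of CCND1 ran from -2.78 to -1.88, and 4 to 8 of the 10 genes had an unadjusted p under 0.05, against 10.5% to 21.2% of all genes.

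Induction of S34F lowered 4 of the 10 genes against the uninduced cells of that line, and 418 of 21300 genes (1.96%) passed, 268 of them lower. On the log2 scale CCND1 fell by 2.41 ± 0.41 (edgeR adjusted p = 0.0398), CDK2 by 1.56 ± 0.24 (adjusted p = 0.0341), CCND3 by 1.28 ± 0.23 (adjusted p = 0.0438) and CDK4 by 1.22 ± 0.23 (adjusted p = 0.0451). CCNE1 differed by -2.13 ± 0.56 and CCNE2 by -1.89 ± 0.79 without passing (adjusted p = 0.0804 and 0.184). The median of the 10 was -1.25, against 0.06 over all genes. With the block 7 of the 10 passed, where 19.2% of all genes did, with CCND2, CCNE1 and CDKN2C added. The uninduced S34F group is 1 library, which the fit assumes to vary like the other groups. With either induced S34F library left out edgeR called no gene, the 4 genes had adjusted p from 0.167 to 0.259, and 5 or 6 of the 10 had an unadjusted p under 0.05, against 15.6% to 16.5% of all genes.

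Induction of WT or Q157R changed none of the 10 genes past the threshold, though most differences were below 0. In WT 9 of the 10 were, with a median log2 difference of -0.34, against 48.4% and a median of 0.01 over all genes. In Q157R 7 of the 10 were, with a median of -0.44, against 46.8% and 0.05. In WT 0 of 21300 genes (0%) passed in edgeR, with 1363 at an unadjusted p under 0.05, 2 of the 10 among them; DESeq2 called 34 genes and none of the 10. In Q157R 0 genes (0%) passed in edgeR, with 1888 at an unadjusted p under 0.05, 1 of the 10 among them; DESeq2 called 75 genes and none of the 10. With the block 89 genes (0.418%) passed in WT and 56 (0.263%) in Q157R, none of the 10 in either. CDK6 differed with induction by -0.51 ± 0.18 in WT, by -0.44 ± 0.21 in Q157R and by -0.50 ± 0.21 in S34F, and none of these passed. CDK2 differed by -0.57 ± 0.20 in WT and by -0.65 ± 0.24 in Q157R, also without passing.

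Whether induction acted differently in S34F than in WT was tested as the difference of the 2 responses, and no gene passed it in edgeR (0 of 21300, 0%). At an unadjusted p under 0.05 stood 1745 genes, 5 of the 10 among them, and DESeq2 called 27 genes and none of the 10. The extra response in S34F was -2.16 ± 0.54 for CCND1, -1.32 ± 0.31 for CCND3 (edgeR adjusted p = 0.589 for both), -0.99 ± 0.32 for CDK2 and -0.97 ± 0.30 for CDK4 on the log2 scale (adjusted p = 0.591 for both). For CDK6 it was 0.01 ± 0.28, with a 95% interval from -0.63 to 0.66. For CCNE2 it was -1.41 ± 1.04, and -0.58 ± 0.89 with the block. With the block 150 genes (0.704%) passed, none of the 10, and CCND3 was nearest (adjusted p = 0.056). The result depended on the filter: without one on low counts, 306 of 38670 genes (0.791%) passed in edgeR, and CCND1 (-2.22, adjusted p = 0.00158), CCND3 (-1.38, adjusted p = 0.0165) and CCNE2 (-1.49, adjusted p = 0.0448) were among them.

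Q157R did not differ from WT past the threshold in any of the 10 genes. In induced cells 0 of 21300 genes (0%) passed in edgeR, with 716 at an unadjusted p under 0.05 and none of the 10 among them. DESeq2 called 3 genes and the block 4 (0.0188%), none of them among the 10. With the block 2 of the 10, CCND3 and CDK4, had an unadjusted p under 0.05, against 8.31% of all genes. Without the block the 95% intervals of Q157R minus WT ran from -0.41 to 1.18 for CCND1 and from -0.30 to 0.51 for CDK6. They ran from -0.86 to 0.04 for CCND3 and from -0.83 to 0.05 for CDK4, and so include lower values of both. With the block they lay below 0, from -0.78 to -0.04 for CCND3 and from -0.70 to -0.06 for CDK4. Neither gene passed there (edgeR adjusted p = 0.542 and 0.511). The difference between the responses to induction of Q157R and WT passed for 0 genes (0%) in edgeR, with 261 at an unadjusted p under 0.05, none of the 10, and for 0 in DESeq2. Before induction, S34F against WT gave 0 genes (0%) in edgeR, with 183 at an unadjusted p under 0.05, and Q157R against WT gave 0 (0%), with 234. None of the 10 was among these, and DESeq2 called 0 genes in either. In uninduced S34F the differences from WT were 0.17 ± 0.42 for CCND1, -0.02 ± 0.24 for CCND3 and -0.40 ± 0.24 for CDK4.

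The wider G1 pathway in induced S34F against induced WT was described by lists. Of 27 E2F target genes of G1/S, all tested, 4 were lower and none higher in edgeR, where 1.67% of all genes were called. All 27 differences were below 0, against 50% of all genes, and the median log2 difference was -1.01, against 0.00. With the replicate block 17 of the 27 were lower, where 22.4% of all genes were called. The 4 called without the block were MCM6 (-1.40 ± 0.24, edgeR adjusted p = 0.0443) and MCM2 (-1.17 ± 0.20, adjusted p = 0.0443), parts of the replicative helicase, TYMS (-1.01 ± 0.15, adjusted p = 0.0443), which makes thymidylate, and TK1 (-1.01 ± 0.15, adjusted p = 0.0443), which salvages thymidine. MCM6 read 48.8 and 74.4 CPM in induced S34F against 175 and 149 CPM in induced WT, and 218 CPM in uninduced S34F. The list was also lower on induction of the other lines, with none called in edgeR. On induction of WT all 27 were below 0 (median -0.59), against 48.4% of all genes. On induction of Q157R 26 were (median -0.69), against 46.8%, and on induction of S34F all 27 (median -1.52), against 47.3%. This list was chosen with earlier results of these data known, so its direction is not independent evidence.

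The counts of the lists that follow stand beside 23.3% of all genes at an unadjusted p under 0.05 and 22.4% called with the block. Of 17 pocket proteins, E2F and DP factors 0 were called in edgeR (7 at an unadjusted p under 0.05, and 6 with the block), with a median of -0.35. TFDP1, the common partner of E2F factors, read 81.9 and 83.2 CPM in induced S34F and 197 and 142 CPM in induced WT (-1.03 ± 0.23, edgeR adjusted p = 0.0622). Its relative TFDP2 read 367 and 360.3 CPM against 243 and 238 CPM (0.59 ± 0.21, adjusted p = 0.148), so the values of the 2 DP genes lay on opposite sides of WT. With the block TFDP1 passed as lower (adjusted p = 0.00163) and TFDP2 as higher (adjusted p = 0.036).

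Of 18 regulators upstream of the D-type cyclins and p27, 17 were tested and 1 was called, AKT1, the kinase that restrains GSK3B and p27 (-1.06 ± 0.18, edgeR adjusted p = 0.0448). AKT1 read 48.1 and 54.4 CPM in induced S34F and 114 and 98.8 CPM in induced WT. The median of that list was -0.03, 8 of the 17 had an unadjusted p under 0.05, and with the block 9 were called, 3 of them higher and 6 lower. Of 18 genes of CDK activation and cyclin turnover 0 were called (6 at an unadjusted p under 0.05, 6 with the block), with a median of -0.11. CUL1, the scaffold of the ligase that degrades cyclin E and p27, differed by -0.72 ± 0.16 (edgeR adjusted p = 0.0648), and passed with the block (adjusted p = 0.00432) and in DESeq2 (adjusted p = 0.0161). GSK3B, which marks cyclin D1 for export and decay, differed by -0.08 ± 0.15. Of 6 cyclins of S, G2 and M phase with CDK1, 0 were called (1 at an unadjusted p under 0.05, 1 with the block), with a median of -0.14. CCNB2, a mitotic cyclin, differed by 0.20 ± 0.20, and CCNF by -0.44 ± 0.17 (edgeR adjusted p = 0.182, and 0.0325 with the block). Of 6 other CDK inhibitors 4 passed the filter and 0 were called (2 at an unadjusted p under 0.05, 2 with the block). CDKN2D, the p19 relative of CDKN2C, differed by -0.93 ± 0.36 (edgeR adjusted p = 0.179, and 0.00416 with the block) and CDKN3 by 0.27 ± 0.20.

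**Figure D4:**
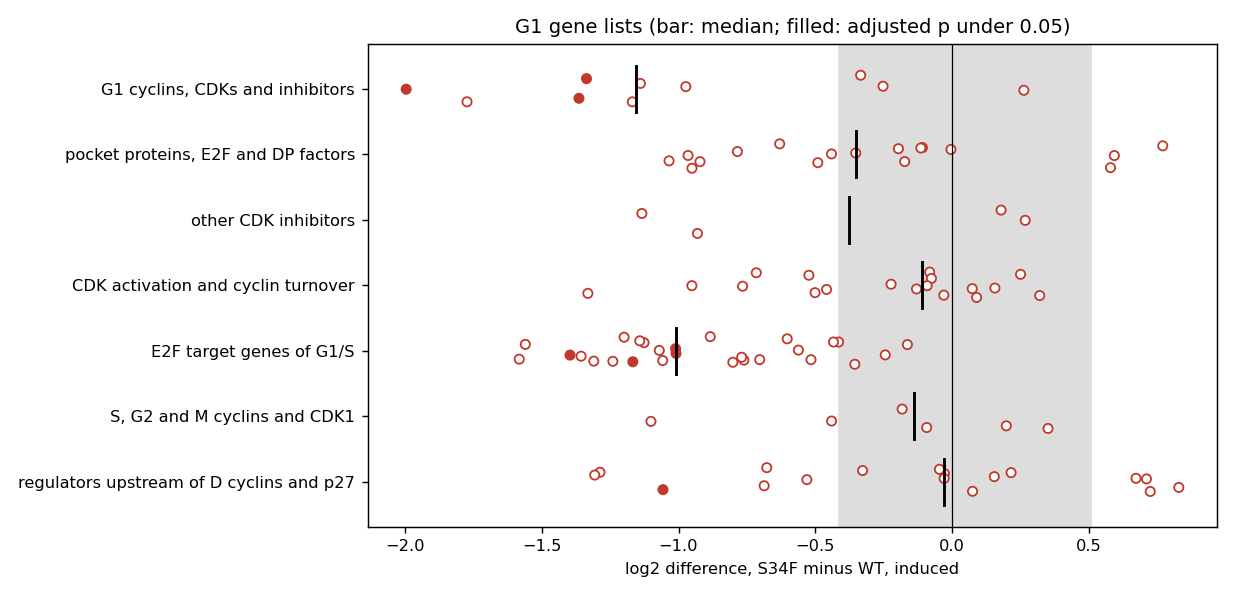
Log2 difference of S34F minus WT in induced cells for every tested gene of 7 G1 gene lists, where points are genes (filled: adjusted p under 0.05 in edgeR), black bars are list medians and the grey band is the interquartile range of all genes tested. The median of the 10 G1 regulators is -1.15 and that of the E2F target genes -1.01, and the other lists have medians between -0.38 and -0.03.

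The levels of the 10 genes over the libraries were related to different degrees. Over the 10 libraries, log2 CPM of CCND3 and CDK4 had a Pearson r of 0.942, CCNE1 and CDK2 of 0.951, CCNE2 and CDKN2C of 0.963, and CCND2 and CCNE2 of 0.256. CDKN1B had negative r with each of the other 9, from -0.843 with CCNE2 to -0.167 with CCND2. These are descriptions, since the libraries share lines, replicate numbers and scaling. Of 10081 genes with a symbol and a mean log2 CPM of at least 3, those most like CCND1 were TMEM163 (r = 0.982), IMPDH1 (0.98), ARPC2 (0.978), CAPZB (0.977) and ADAM15 (0.976). TMEM163 read 9.77 and 17.4 CPM in induced S34F and 32.8 to 45.4 CPM elsewhere.

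RNA crosslinked to U2AF1 or U2AF2 was read in eCLIP libraries of induced WT cells, with 2 biological replicates each after technical replicates were summed. The counts assigned to the 10 genes did not follow their RNA levels. Named genes took only 1.22% to 1.89% of the counted eCLIP reads, and 48.2% to 60.2% lay outside annotated features. A count of 0 on a gene thus does not show that its transcript was free of crosslinks. CDK4 had 132 and 84.8 counts per 1000000 gene counts for U2AF1 and 90.6 and 92.7 for U2AF2, CDKN2C 124 and 127 for U2AF1 and 89.9 and 99.6 for U2AF2, and CCNE2 110.1 and 52.2 for U2AF1 and 108 and 87.8 for U2AF2. These 3 genes held 85.4% of the 1033 U2AF1 counts on the 10 genes and 78.9% of the 888 U2AF2 counts. TSPAN31 shares 43.2% of the exon bases of CDK4 and INTS8 37% of those of CCNE2. The strand setting is not stated, so how reads in the shared bases were assigned is not known. CCND2, the most abundant RNA of the 10, had 0 of 2496528 U2AF1 counts, which allows up to 1.2 counts per 1000000 gene counts, and 2 of 2458967 U2AF2 counts. CCND1 had 80 and 2 U2AF1 counts and 50 and 37 U2AF2 counts, CCND3 had 45 and 4, and 36 and 20, and CDK6 had 11 and 1, and 11 and 6. CCNE1, CDK2 and CDKN1B had at most 10 counts in any replicate. The second U2AF1 replicate held 306711 gene counts against 2189817 in the first, so its values are the least precise. Limits and shares cover counting error only, because the tables carry no molecular identifiers, and the part of the transcript that the reads came from was not analysed here.

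**Figure D5:**
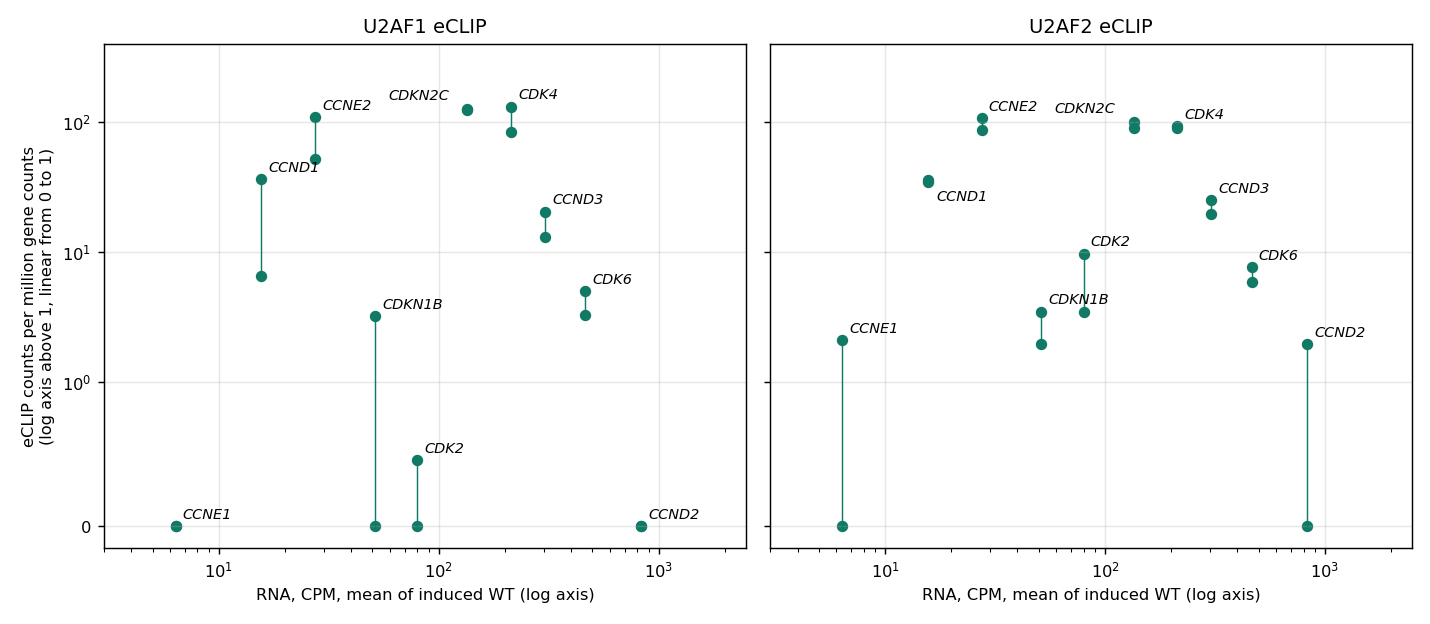
eCLIP counts per 1000000 gene counts (log axis above 1, linear below) against mean RNA level in induced WT cells (CPM, log axis) for the 10 genes, for U2AF1 and U2AF2. Points are the 2 biological replicates joined by a line. CDK4, CDKN2C and CCNE2 are highest, and CCND2, with the highest RNA level, has 0 U2AF1 counts assigned to it. Reads outside annotated features are not included.

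In freCLIP, which divides the U2AF1 crosslinks into a light and a heavy fraction of the membrane, 3 of the 10 genes passed the filter: CDK4, CDKN2C and CCNE2. None of them was called in any of the 4 comparisons, by edgeR, DESeq2 or the block. The overlaps of CDK4 with TSPAN31 and of CCNE2 with INTS8 limit these counts as well. In the light fraction of S34F against WT 23 of 6833 genes (0.337%) passed. CDK4 read 68.3, 127 and 128 CPM in light S34F against 275, 367 and 123 CPM in light WT, ranges that overlap, with a log2 difference of -1.26 ± 0.65 (edgeR adjusted p = 0.366). In the heavy fraction of S34F against WT 9 genes (0.132%) passed, and CDK4 differed by -0.12 ± 0.57. These counts were not divided by RNA level, and the RNA of CDK4 differed by -1.36 ± 0.19 between induced S34F and WT. In light Q157R against WT 519 genes (7.6%) passed with a median of -1.19 over all genes, so these libraries stand apart as a whole. There CDK4 read 473 and 503 CPM and differed by 0.93 ± 0.67, and CDKN2C by 1.15 ± 0.71 (edgeR adjusted p = 0.328 and 0.25). In heavy Q157R 0 genes (0%) passed in edgeR, with 149 at an unadjusted p under 0.05, none of the 3 among them, and DESeq2 called 0. At an unadjusted p under 0.05 edgeR gave none of the 3 in any of the 4 comparisons, against 14.2% of all genes in light S34F, 30.7% in light Q157R, 4.07% in heavy S34F and 2.18% in heavy Q157R. DESeq2 gave 1 of the 3 in light S34F, against 16.3% of all genes, and 2 in light Q157R, against 29%. The freCLIP libraries held 38415 to 730996 gene counts, and the 17 together held 937 counts on CDKN2C, 712 on CDK4, 408 on CCNE2, 111 on CCND3, 96 on CCND1 and 48 or fewer on each of the others.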

How the data were processed

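HEL cells with WT, S34F or Q157R U2AF1 were profiled in 43 samples, of which 10 RNA-seq, 7 eCLIP and 17 freCLIP libraries were used; the 9 TL-seq samples were set aside. Each deposited table holds the authors' unnormalized counts of reads per gene. The submitters' processing notes name, without roles, HISAT2, STAR 2.7.0f and 2.5.3a, cutadapt, SAMtools, HTSeq, DESeq2, edgeR and build GRCh38.p10. The annotation release and the strand setting of the counting are not given in the sources used here. Of the counted reads, named genes took 43.6% to 56.1% for RNA-seq, 1.22% to 1.89% for eCLIP and 0.856% to 1.91% for freCLIP; lines that name no gene were left out. Symbols, positions and exon lengths came from GENCODE 29 on GRCh38.

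Differences were tested with edgeR 4.0.16 in R 4.3.3 (TMM, filterByExpr with minimum count 10, robust quasi-likelihood F test, 1 mean per group, all libraries of an assay together), adjusted by Benjamini-Hochberg over every gene tested, with calls at 0.05. The test was checked on simulated counts. The like-numbered RNA libraries deviated together from their group means (r = 0.211 to 0.652 in 6 of 6 pairs of groups, while the labels do not say what a number marks), so values with the replicate block are given where it changes a call. The 95% intervals are from the t distribution of each fit. Alternatives were the block, DESeq2 1.42.0, its size factors in edgeR, no filter, only the compared groups, and leaving out each library.

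The genes described were taken by name. Of each other list, members called in S34F against WT or Q157R were named, up to 6, or else the 2 most abundant, with the 5 genes most like CCND1. The genes and lists were chosen with earlier results of these data known.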

Additional observations from a re-analysis of the deposited data

Results flagged for a closer look

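In heavy-fraction freCLIP of WT cells, the group of 4 libraries, 1 library stood far from the other 3 in 4 of the 10 genes. CCND2 was at 16.3 CPM in replicate 3 and at 0 in the others, from 10 counts. CCNE1 was at 23 CPM in replicate 2, from 2 counts, and CDK2 at 11.5 CPM in replicate 2, from 1 count. CDK6 was at 17.7 CPM in replicate 4, from 9 counts. The test's rate of 1 in 20 groups set apart by chance does not hold for counts this sparse, since a gene with reads in 1 library alone is always set apart, so these values say nothing about the libraries. CCND2 also had 36 counts in replicate 3 of light S34F and 0 in the other 7 light libraries.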

How the results depend on the processing

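With the replicate block, which pairs like-numbered libraries, 6 of the 10 genes passed in S34F against WT, 6 in S34F against Q157R and 7 in induction of S34F, and over all genes 4779, 4261 and 4099. The block gave 4 genes in induced Q157R against WT, 89 in induction of WT, 56 in induction of Q157R, 150 and 1 for the extra responses in S34F and Q157R, 333 in light Q157R and 17 in heavy S34F freCLIP. It changed no other call of the 10 genes. DESeq2 called 6 and 6 of the 10 in S34F against WT and against Q157R, and over all genes 1612, 1341, 1812 in induction of S34F, 3 in Q157R against WT, 34 and 75 in induction of WT and Q157R, 27 for the extra response in S34F, and 141 and 35 in light and heavy S34F freCLIP. Without a filter on low counts 7 of the 10 passed in S34F against WT, against Q157R and in induction of S34F. CCNE2 was added against WT and against Q157R (edgeR adjusted p = 0.000849 and 0.000597). For the extra response in S34F 3 passed (CCND1, CCND3 and CCNE2). Of the 38670 RNA genes tested, that setting gave 2410, 2135, 2992 and 306 in these 4 comparisons. It gave 15 in Q157R against WT, 130 and 569 in induction of WT and Q157R, and 44 for the extra response in Q157R. Before induction it gave 63 and 119 in S34F and Q157R against WT. In freCLIP it gave 11, 263 and 1 in light S34F, light Q157R and heavy S34F. With only the compared groups fitted, 0 of the 10 and 0 genes passed in S34F against WT and against Q157R, with adjusted p = 0.076 for CCND1, CCND3 and CDK4 against WT; in induction of S34F 7 of the 10 and 4357 genes passed, in induction of Q157R 8 genes, and in freCLIP 4 in light S34F, 0 in light Q157R and 240 in heavy S34F. The cause was not tested. Size factors of DESeq2 within edgeR changed none of these counts by over 1.5 times.

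Leaving out 1 library gave 0 to 0 genes, and 0 to 0 of the 10, in each of the 10 RNA comparisons, 6 to 28 genes in light S34F, 137 to 1318 in light Q157R, 0 to 2 in heavy S34F and 0 to 0 in heavy Q157R freCLIP. Over 992 values of the 10 genes under an alternative, none called in either fit changed sign, and 96 that were called in neither did. With 2 libraries a group, and 42 and 63 counts for CCNE1 or 75 and 148 for CCND1 in induced S34F, small differences were not detectable.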

Other observations

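Of the gene entries within 500 kb of CCND1 on chr11, 6 were tested, CCND1 included. MYEOV, 273 kb away, read 4.26 and 6.74 CPM in induced S34F, 18.8 and 17.8 CPM in induced WT, 21 and 15.8 CPM in induced Q157R and 18.4 to 32.1 CPM in uninduced cells. Its log2 difference of S34F from WT was -1.73 ± 0.31 (edgeR adjusted p = 0.0448), beside -2.00 for CCND1. Against induced Q157R MYEOV differed by -1.74 ± 0.31 without passing (edgeR adjusted p = 0.0569). LTO1, which overlaps the end of CCND1, differed from WT by 0.43 ± 0.31 and TPCN2, 479 kb away, by 0.22 ± 0.25, and neither passed. AP005233.2, at no more than 0.919 CPM, differed by -0.88 ± 0.54 and AP003071.5, at no more than 0.353 CPM, by 0.25 ± 1.07, also without passing. The neighbours were looked at after the values of CCND1 were known.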
